A study of Mus musculus with 9 samples.

Results

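Keratin-associated protein (Krtap) genes were examined in whole stomachs taken at birth from 5 mice lacking Cebpb, the gene for the transcription factor C/EBPβ (KO 1 to KO 5) and from wild types (4 mice, WT 1 to WT 4), every mouse on an Agilent 1-colour array of its own. Probes were taken as members where the gene name on the array, or the current symbol of the probe's RefSeq accession, begins with Krtap. That gave 68 probes of 53 genes, out of 55681 probes with 35080 gene or transcript names. The family was selected on the measured KO minus WT difference of 2 of its genes: Krtap3-2 and Krtap3-3 were higher in knockout stomachs. The values of this pair are therefore given as a description without a test. The question asked of the rest is whether their neighbours in the chromosome 11 cluster were higher too. The labels state neither the strain of the mice nor which part of Cebpb was removed, and they call the animals old in 1 field and place them at birth in others. The labels describe no treatment, transgene or further allele in either group. Cebpb itself read −2.86 to −1.57 on the knockout arrays, against 3.01 to 3.72 on the wild-type arrays, on the log2 scale explained with the levels.

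Keratin-associated proteins are small proteins, rich in cysteine or in glycine and tyrosine, that fill the space between keratin filaments in the hair shaft and are joined to the keratins through disulfide bonds. Their genes are short, lie in clusters of near relatives, and are known for their expression in the cortex and cuticle of growing hair. The rodent forestomach is lined by a squamous epithelium that cornifies as the epidermis does, whereas the glandular stomach is lined by mucous, parietal, chief and endocrine cells.

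Of the family's nearest relatives, the 3 Krtap3 genes lie side by side on chromosome 11, and each was read by 1 probe near the end of its transcript. On the array's mm9 coordinates the probes are on the minus strand at chr11:99411448-99411507 (Krtap3-3), chr11:99417555-99417614 (Krtap3-2) and chr11:99427397-99427456 (Krtap3-1). The starts of the Krtap3-3 and Krtap3-2 probes are 6.11 kb apart, and those of the Krtap3-2 and Krtap3-1 probes 9.84 kb apart. The first 30 of each probe's 60 bases are shown so that the 3 probes can be compared.
Krtap3-3: gaggaattttctcatgatcttcctaataaa
Krtap3-2: ggtgaacatcttccattatgaaagtgctat
Krtap3-1: aatgctttattcctttgggaacagatgaat
The longest run of bases that any pair of these whole probes has in common is 7 bases long. The probes were compared with each other and not with whole transcripts. The comparison therefore cannot decide whether 1 probe reads another member's transcript.

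The 250 bases before each start site are shown because 2 of these 3 neighbours were higher in knockout stomachs and the third was dim in both groups. They come from RefSeq on GRCm38.p6, all on the minus strand of chromosome 11. Capitals mark matches on either strand to TATAAA, 1 form of the TATA box, or to TTGCNNAA, 1 form of the C/EBP family's recognition sequence.
Krtap3-3: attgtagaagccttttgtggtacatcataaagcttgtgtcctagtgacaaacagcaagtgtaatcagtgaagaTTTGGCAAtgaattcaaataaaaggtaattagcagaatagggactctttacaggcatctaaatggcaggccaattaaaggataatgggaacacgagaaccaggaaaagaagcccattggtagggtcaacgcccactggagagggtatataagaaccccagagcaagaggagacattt
Krtap3-2: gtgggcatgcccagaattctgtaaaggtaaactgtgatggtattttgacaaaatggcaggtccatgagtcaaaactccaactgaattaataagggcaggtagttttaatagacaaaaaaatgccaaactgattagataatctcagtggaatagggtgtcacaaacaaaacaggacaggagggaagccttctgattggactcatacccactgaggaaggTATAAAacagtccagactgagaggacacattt
Krtap3-1: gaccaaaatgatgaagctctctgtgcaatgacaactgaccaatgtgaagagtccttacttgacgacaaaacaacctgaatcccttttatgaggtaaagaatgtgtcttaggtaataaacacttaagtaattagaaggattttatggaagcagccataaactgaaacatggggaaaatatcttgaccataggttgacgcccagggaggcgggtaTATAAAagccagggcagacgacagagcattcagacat
TATAAA was found in the Krtap3-2 and Krtap3-1 windows and TTGCNNAA in the Krtap3-3 window. Another form of the TATA box, TATATAA, was found on either strand in the Krtap3-3 and Krtap3-1 windows, overlapping TATAAA in Krtap3-1, and in 3.04% of all promoters, so each of the 3 windows holds a form of it. In windows of the same length, TATAAA occurs in 13.0% and TTGCNNAA in 9.55% of 27025 mouse promoters. Aligned in pairs, the windows were identical at 53.2% to 55.8% of positions, and the Krtap3-2 and Krtap3-3 windows were identical at 54.1%. A match or its absence says nothing here about binding.

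Levels are on a log2 scale and set each probe's processed spot signal against the 75th percentile of its array, a scale on which 0 is the 75th percentile and the dimmest probes lie near the bottom of each array's range. Krtap3-2 encodes a member of the high-sulfur class. It read −0.16, −0.97, −0.10, −1.42 and −2.04 on KO 1 to KO 5, against −6.18, −6.78, −5.53 and −5.76 on WT 1 to WT 4. The processed signals behind these levels were 261, 145, 440, 170 and 111 units in KO, against 5.66, 3.10, 6.41 and 4.06 units in WT. The lowest knockout value exceeded the highest wild-type value, and the probe was flagged well above background (the scanner software's own call for a spot) on 5 of 5 knockout arrays and 0 of 4 wild-type arrays. The mean level was −0.94 ± 0.83 in KO and −6.06 ± 0.55 in WT (SD, n = 5 and 4). Since the wild-type arrays give only a bound, Krtap3-2 was at least 11.6-fold higher in KO, where the dim side is taken, per array, as the probe's own signal or the dimmest signal that still counted as well above background, whichever is higher.

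Krtap3-3, a gene of the same class, read −3.36, −3.23, −2.62, −4.31 and −1.42 on KO 1 to KO 5, against −7.07, −6.85, −5.58 and −5.80 on WT 1 to WT 4. Its signals were 28.4, 30.1, 76.7, 22.8 and 170 units in KO, against 3.06, 2.95, 6.19 and 3.95 units in WT. The groups did not overlap, but the probe was well above background on 4 of 5 knockout arrays only, KO 4 being the exception, and on 0 of 4 wild-type arrays. The mean level was −2.99 ± 1.07 in KO and −6.32 ± 0.74 in WT (SD, n = 5 and 4). With the dim side taken as for Krtap3-2, Krtap3-3 was 2.80-fold higher in KO. This is not a strict bound, since the KO mean holds the level of KO 4. Fewer cells of a type and less RNA per cell cannot be told apart in whole stomachs.

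The pair did not rank the knockout mice alike. KO 5 had the lowest Krtap3-2 level and the highest Krtap3-3 level of the 5 knockout arrays. KO 1 and KO 3, the knockout arrays with Y-linked signal, had the highest Krtap3-2 levels. On these and on all wild-type arrays, 3 of 3 Y-linked probes were well above background. KO 2 had 1 of the 3 and KO 4 and KO 5 had 0, and these arrays were counted as without the signal. Within the arrays with Y-linked signal the KO minus WT difference was 5.93 for Krtap3-2 and 3.33 for Krtap3-3, against 5.13 and 3.33 over all arrays. The arrays lie on 4 slides, of which 2 held both groups. KO 1 lay alone on slide 3 and KO 3 alone on slide 2. Among the knockout arrays, Y-linked signal therefore cannot be told apart from slide. Within slide 1 (KO 4 and KO 5 against WT 3 and WT 4) the differences were 3.92 for Krtap3-2 and 2.82 for Krtap3-3, and within slide 4 (KO 2 against WT 1 and WT 2) they were 5.51 and 3.73. With another background correction, normexp, which adds an offset of 50 units to each signal, the differences were 1.64 and 0.57.

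Krtap3-1, the third gene of the trio, was above background by the software's flag on none of the 9 arrays, with levels of −6.99 to −6.17 in KO and −7.12 to −4.04 in WT. Its highest value was that of WT 3, and neither group gives more than a bound. A predicted gene that lies between Krtap3-2 and Krtap3-1, given on the array only by its Ensembl transcript (ENSMUST00000104931), read −4.14 in KO and −3.79 in WT on average. Its difference of −0.35 (SE 0.23) did not pass limma's moderated test, whose p is adjusted over all 21730 genes tested and whose SE is given throughout (adjusted p = 0.755). The plot of Krtap3 levels by array shows the contrast between the pair and Krtap3-1.

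**Figure D1:**
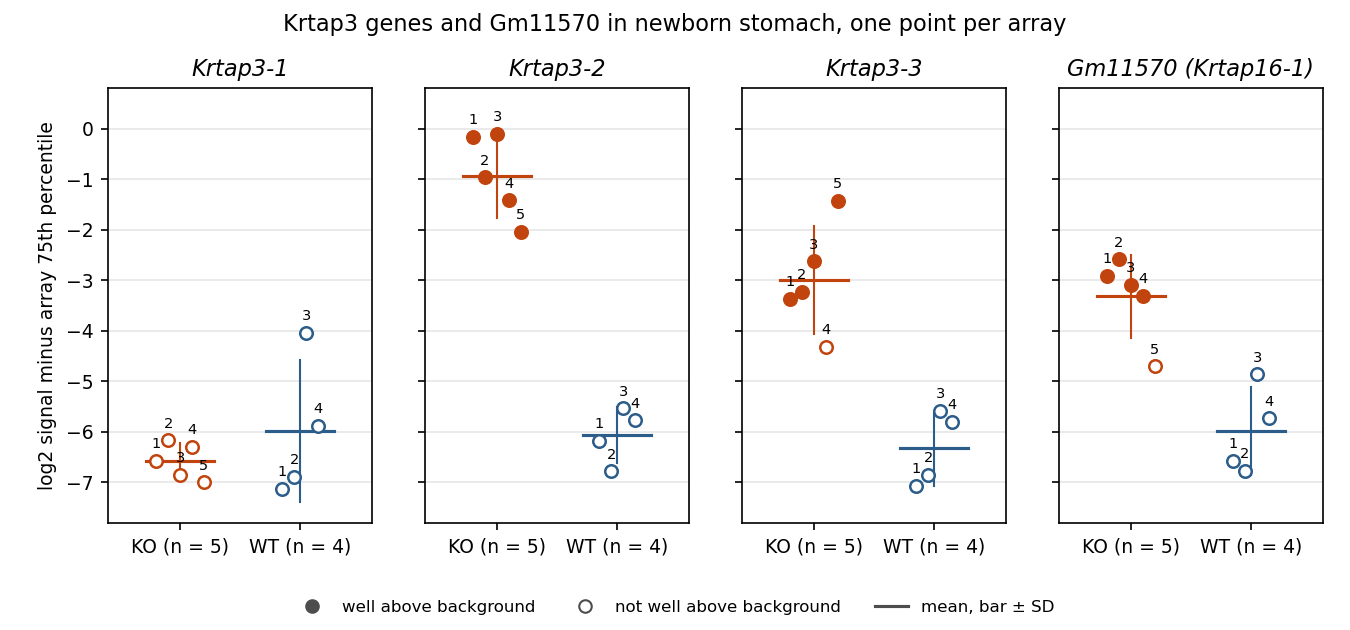
Levels of Krtap3-1, Krtap3-2, Krtap3-3 and Gm11570 (log2 signal minus the array's 75th percentile) for the 5 KO and 4 WT arrays, numbered by mouse. Filled points were well above background, open points were not, and lines give the mean ± SD. For Krtap3-2 and Krtap3-3 every KO point lies above every WT point, Krtap3-1 is open on all 9 arrays, and KO 5 is the lowest KO point for Krtap3-2 and Gm11570 but the highest for Krtap3-3.

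Over the whole chromosome 11 cluster, which spans 443 kb between its outermost Krtap probes, 0 of the 6 tested Krtap genes besides the pair passed the test. The cluster held 20 of the 53 genes, and besides the pair it held 18 genes with 19 probes. Of these 19 probes, 8 were well above background on no array, 5 on 1 array each and 6 on 4 or more arrays. The 6 genes with such a probe were Krtap1-4, Krtap4-1, Krtap4-8, Krtap4-16, Krtap9-1 and Krtap31-1, and 1 was higher and 5 were lower in KO, with 0 past the threshold. Over all genes tested, 0.202% passed (44 of 21730), 0.124% as higher and 0.0782% as lower in KO.

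Krtap4-8 of the ultra-high-sulfur class was well above background on all 9 arrays, with 1.33, 1.27, 1.41, 1.11 and 1.73 on KO 1 to KO 5, against 0.56, 0.95, 1.04 and 1.91 on WT 1 to WT 4. The groups overlapped through WT 4, the highest of the 9 arrays, and the difference was 0.26 (SE 0.26, limma adjusted p = 0.86). Krtap31-1 had the smallest unadjusted p of the 6 (0.0122), with −3.29, −4.10, −4.01, −3.55 and −4.08 in KO, against −3.55, −3.16, −2.94 and −2.77 in WT. Here KO 1 and, narrowly, KO 4 lay among the wild-type values, and the difference of −0.70 (SE 0.23) had an adjusted p of 0.414. Krtap1-4 of the high-sulfur class and Krtap4-1, Krtap4-16 and Krtap9-1 of the ultra-high-sulfur class differed by −0.27, −0.48, −0.18 and −0.17, with adjusted p of 0.867 to 0.929.

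The 5 chromosome 11 probes that were well above background on 1 array were so on a knockout array in each case. Krtap1-5, Krtap17-1 and Krtap31-2 were detected on KO 5 at −4.50, −2.18 and −1.99, Krtap4-2 on KO 2 at −3.03 and Krtap9-3 on KO 3 at −4.00. These genes were not tested because fewer than 4 arrays detected them. Krtap9-3 read higher on WT 3, at −3.51, where it was not flagged. The dimmest flagged level differed by array, from −5.13 on WT 1 to −3.88 on WT 4, and was −4.97 on KO 5 and −3.96 on WT 3. The Krtap1-5 level on KO 5 and the Krtap9-3 level on KO 3 lay below that limit on WT 3 and WT 4. Off chromosome 11, Krtap26-1 was flagged on KO 5 alone and a probe of Krtap11-1 on WT 2 alone. Krtap8-1 and a probe of Krtap5-5 were flagged on KO 5 and WT 2, and Krtap13 is given further on. How single-array detection falls between the groups over all probes was not counted. KO 5 is also the array with the highest Krtap3-3 level. The probes with no array above background read Krtap1-3, Krtap2-4, Krtap3-1, Krtap4-6, Krtap4-7, Krtap4-9, Krtap9-5 and the later probe of Krtap4-16.

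One further gene of the cluster carries an older name on the array and falls outside the rule for members. Its array name is Gm11570, which the RefSeq table for GRCm38.p6 lists as a synonym of Krtap16-1, and it was noticed after its values were seen. Its probe, at mm9 chr11:99846024-99846083, starts 428 kb from that of Krtap3-2. Gm11570 read −2.91, −2.58, −3.09, −3.30 and −4.70 on KO 1 to KO 5, against −6.57, −6.77, −4.86 and −5.73 on WT 1 to WT 4. It was well above background on 4 of 5 knockout arrays, not on KO 5, and on 0 of 4 wild-type arrays. The groups were separated by the narrow gap between KO 5 and WT 3, neither of which was well above background. The mean level was −3.32 ± 0.82 in KO and −5.98 ± 0.87 in WT (SD, n = 5 and 4), a measured difference of 2.66. With the dim side taken as for Krtap3-2, Gm11570 was 2.23-fold higher in KO. That is not a strict bound, since the KO mean holds the level of KO 5. No test is given for Gm11570, since it met the detection filter through knockout arrays alone and was singled out after its values were seen. With normexp background correction the difference was 0.33. The array's own name Krtap16-1 belongs to a chromosome 16 probe whose current symbol is Krtap19-2.

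**Figure D2:**
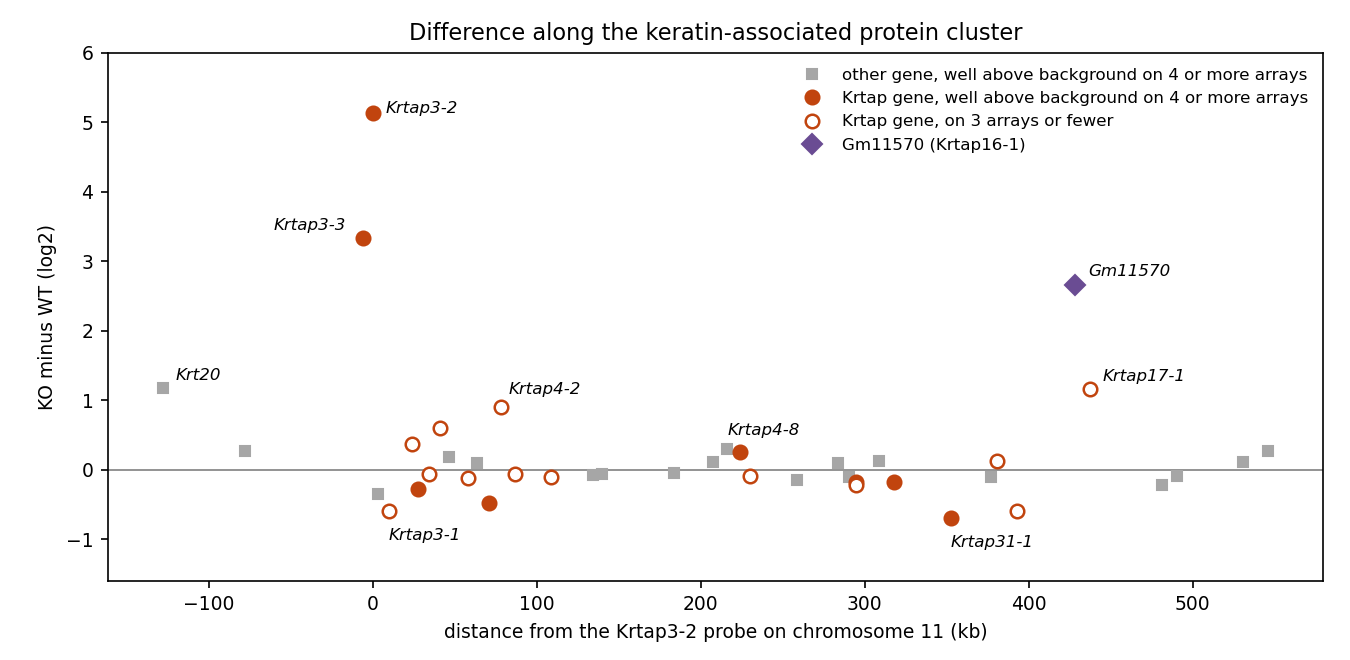
KO minus WT difference in log2 level against the distance in kb from the Krtap3-2 probe on chromosome 11, for Krtap probes (circles, open where 3 arrays or fewer were well above background), other genes (squares) and Gm11570 (diamond). Krtap3-2 at 5.13, Krtap3-3 at 3.33 and Gm11570 at 2.66 are the highest of the points drawn, which cover 140 kb before to 560 kb beyond the Krtap3-2 probe. Krt20 at 1.17 and Krtap17-1, detected on KO 5 alone, also lie above 1, and Gast at 2.88, Gsdma2 at 1.57, Gsdma3 at 1.51 and Nr1d1 at 1.26 lie farther out within 1 Mb and are not drawn.

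The surroundings of Krtap3-2 were read from the 5 genes nearest to it on each side that are not Krtap genes. On the side of Krtap3-3 these were the keratin genes Krt23, Krt20, Krt10, Krt24 and Krt222, with differences of 0.26, 1.17, −1.61, 0.39 and 0.59. Krt20, a keratin of gastric surface and intestinal epithelium, did not overlap between groups but did not pass (SE 0.26, limma adjusted p = 0.205). Krt10, the keratin of cornifying suprabasal cells, averaged 4.37 in KO and 5.98 in WT with an adjusted p of 0.685. On the other side, the predicted genes nearest to Krtap3-2 differed by −0.35 to 0.19, with limma adjusted p of 0.755 to 0.976. Their probes start 2.93 to 140 kb from that of Krtap3-2, inside the 443 kb cluster, so they do not read its far flank.

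Within 1 Mb on either side of Krtap3-2, 71 genes other than the pair were tested. Of these, 39 were higher and 32 lower in KO, with a median difference of 0.06 against 0.01 over all genes tested. The limma test called 0 of the 71 at an adjusted p below 0.05, and 9 (12.7%) had an unadjusted p below 0.05, against 8.74% of all genes (1899 of 21730). The groups did not overlap for 3 of the 71, against 3.37% of all genes. Gm11570 is among both the 9 and the 3.

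Across the whole family, the pair set aside, 0 tested genes passed. Of the 68 probes, 17 were well above background on all 9 arrays, 10 on 4 to 8, 10 on 1 to 3 and 31 on none. Detection on 4 or more arrays was thus 39.7% for Krtap probes, against 54.2% for all probes. The number of Krtap probes detected was 26, 24, 28, 25 and 32 on KO 1 to KO 5, against 26, 28, 22 and 25 on WT 1 to WT 4, so the counts overlapped and KO 5 had the most. Of the 53 genes, 22 were tested and 31 were not, and 22 of those were above background on no array.

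Besides the pair, 20 Krtap genes were tested, 5 of them higher and 15 lower in KO. None passed the threshold in limma's test, for 1 (Krtap31-1) the unadjusted p was below 0.05, and for 0 of the 20 did the groups fail to overlap. Their median difference was −0.17, with a range of −0.78 to 0.26. That direction depended on the arrays used: without WT 4, 11 of the 20 were higher and 9 lower, with a median of 0.04. On arrays with Y-linked signal alone, WT 4 among them, 11 were also higher and 9 lower, with a median of 0.06. Without WT 1, by contrast, 1 was higher and 19 were lower (median −0.33).

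**Figure D3:**
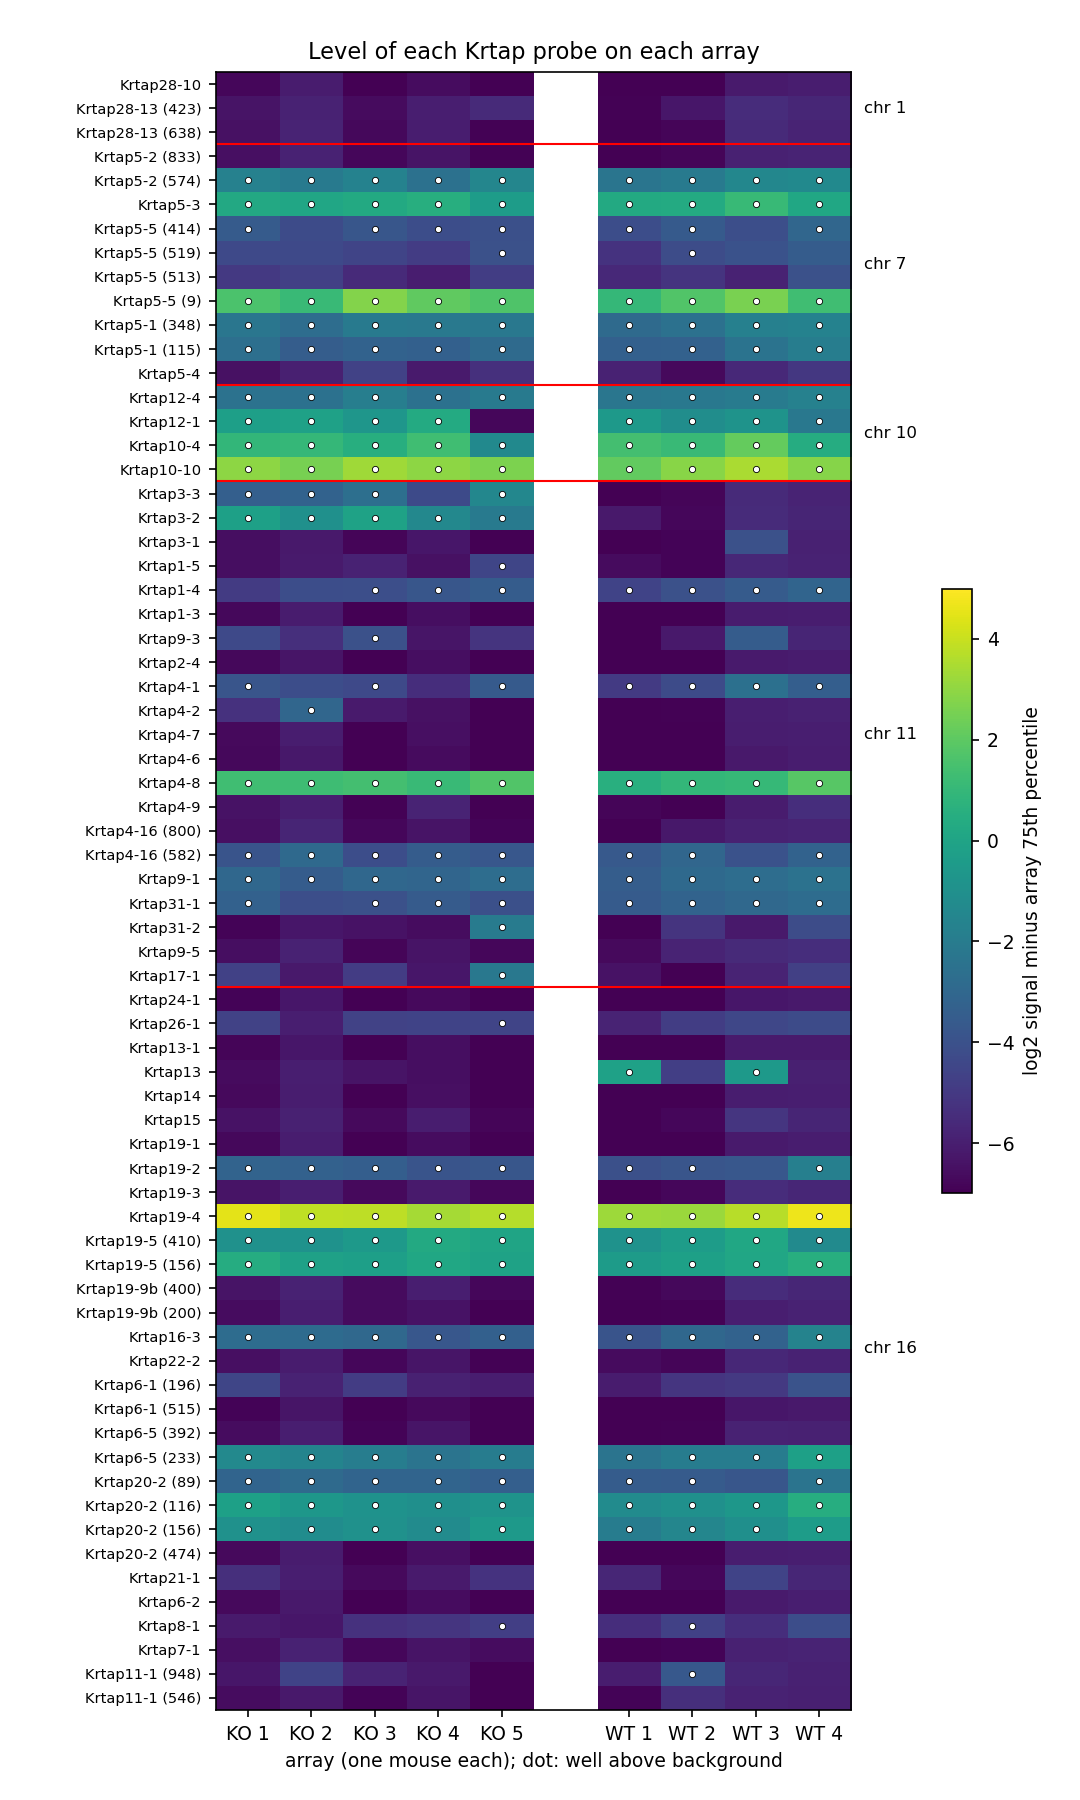
Level of each of the 68 Krtap probes (log2 signal minus the array's 75th percentile, colour scale) on the 5 KO and 4 WT arrays, ordered by chromosome and position, with a dot where the probe was well above background. Numbers in parentheses are probe positions in the transcript for genes with several probes. Krtap3-2 is dotted on all 5 KO arrays and Krtap3-3 on 4 of them, KO 4 being the exception. Both have no dot in WT, and 31 probes have no dot on any array.

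WT 4 had the highest level of the 9 arrays for 17 of the 25 Krtap probes detected on 4 or more arrays (68.0%), leaving out the pair, against 26.5% of all probes so detected. On chromosome 16 it was highest for 8 of 9 such probes, which belong to Krtap6-5, Krtap19-2, Krtap19-4, Krtap19-5, Krtap16-3 and Krtap20-2. WT 4 had the lowest 75th percentile of signal of the 9 arrays, 221 units, and the other arrays lay between 283 and 471 units. It also had the lowest mean level over 23 forestomach squamous genes, as given further on. The part of these in the Krtap values was not tested.

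Of the chromosome 16 genes, 22 were on the array and 6 were tested. Krtap19-4, a high-glycine-tyrosine gene, had 4.53, 3.83, 3.78, 3.39 and 3.66 in KO, against 3.25, 3.19, 3.72 and 4.71 in WT. The wild-type values spanned the knockout ones, and the difference was 0.12 (SE 0.34, limma adjusted p = 0.97). Krtap19-5, read by both of its probes on all 9 arrays, differed by 0.00 (SE 0.22). The remaining tested genes, Krtap6-5, Krtap16-3, Krtap19-2 and Krtap20-2, differed by −0.23 to −0.13 with adjusted p of 0.944 to 0.975.

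Krtap13, also on chromosome 16, was either bright or dark by mouse. It read −0.13 on WT 1 and −0.52 on WT 3, where it was well above background, and −4.79 or lower on WT 2, WT 4 and all 5 knockout arrays. With 2 arrays detecting it, the gene was not tested.

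On chromosome 10 all 4 Krtap genes were tested. Krtap12-1 read −0.22, −0.15, −0.71, 0.32 and −6.77 on KO 1 to KO 5, against −0.51, −1.13, −0.83 and −2.21 on WT 1 to WT 4. KO 5 was the only array on which it was not well above background, and the difference of −0.34 (SE 1.30) did not pass (limma adjusted p = 0.976). Krtap10-4 was also lowest on KO 5, with 0.96, 0.97, 0.54, 1.34 and −1.29 in KO, against 1.40, 1.13, 2.15 and 0.45 in WT. Its difference of −0.78 (SE 0.53) was the most negative of the 20 genes and did not pass either (adjusted p = 0.764). Krtap12-4 and Krtap10-10, in the same cluster, read −2.04 and 2.63 on KO 5, within the range of the other knockout arrays.

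The Krtap5 genes of chromosome 7 belong to the ultra-high-sulfur class, and 4 of 5 were tested. Krtap5-5 differed by 0.18 (SE 0.38), Krtap5-1 by −0.07 (SE 0.26), Krtap5-2 by −0.13 (SE 0.28) and Krtap5-3 by −0.34 (SE 0.24), with limma adjusted p of 0.77 to 0.976. Krtap5-4 and both Krtap28 genes of chromosome 1 were above background on no array.

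Some Krtap probes share sequence with probes of other genes. A probe was said to share sequence where a run of 20 or more of its bases occurs in a probe of another gene on the array. That held for 13 Krtap probes, of which 10 (76.9%) were detected on 4 or more arrays, against 17 of the 55 others (30.9%). Of the 13, 7 share a run with a probe of another Krtap gene and 6 only with probes of genes that are not members by the rule. The probes of the pair share no such run. The Krtap20-2 probes show the repeat, with bases that also occur in probes of other genes in capitals, at transcript positions 89, 116 and 156.
Krtap20-2 position 89: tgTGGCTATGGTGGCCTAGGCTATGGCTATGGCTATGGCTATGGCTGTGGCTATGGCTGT
Krtap20-2 position 116: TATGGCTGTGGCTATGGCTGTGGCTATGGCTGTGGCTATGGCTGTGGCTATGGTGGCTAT
Krtap20-2 position 156: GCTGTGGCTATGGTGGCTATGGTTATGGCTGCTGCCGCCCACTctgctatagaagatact
These probes were well above background on 8 or 9 arrays each, whereas the Krtap20-2 probe at position 474, which shares no run with another gene, was so on none.

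Several genes gave a like contrast between their own probes. Of 11 Krtap genes with more than 1 probe, 5 had a probe detected on 4 or more arrays and another detected on none, namely Krtap4-16, Krtap5-2, Krtap5-5, Krtap6-5 and Krtap20-2. That is 45.5% of these genes, against 24.5% of all 10998 genes with more than 1 probe. In 4 of the 5 the undetected probe was the one farthest along the transcript. By contrast both probes of Krtap19-5 and both of Krtap5-1 were detected on all 9 arrays. For genes whose probes disagree, the level given above is that of the brightest probe and cannot be assigned to the named gene alone.

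A pair of chromosome 16 probes shows how little separates a detected from an undetected probe. The Krtap6-1 and Krtap6-5 probes at the end of the coding sequence differ at 3 of 60 positions, in capitals, written from 1 at the 5′ end as the Krtap6-1 base, the position and the Krtap6-5 base (T24C, A36C and T57C).
Krtap6-1: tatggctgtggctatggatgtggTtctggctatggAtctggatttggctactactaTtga
Krtap6-5: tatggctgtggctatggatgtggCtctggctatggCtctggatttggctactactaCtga
On all 9 arrays this Krtap6-5 probe was detected, and on none the Krtap6-1 probe. The detected Krtap6-5 probe read −1.37 to −2.38 in KO and −0.17 to −2.40 in WT, so the groups overlapped. The other Krtap6-5 probe, at position 392, was detected on no array.

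**Figure D4:**
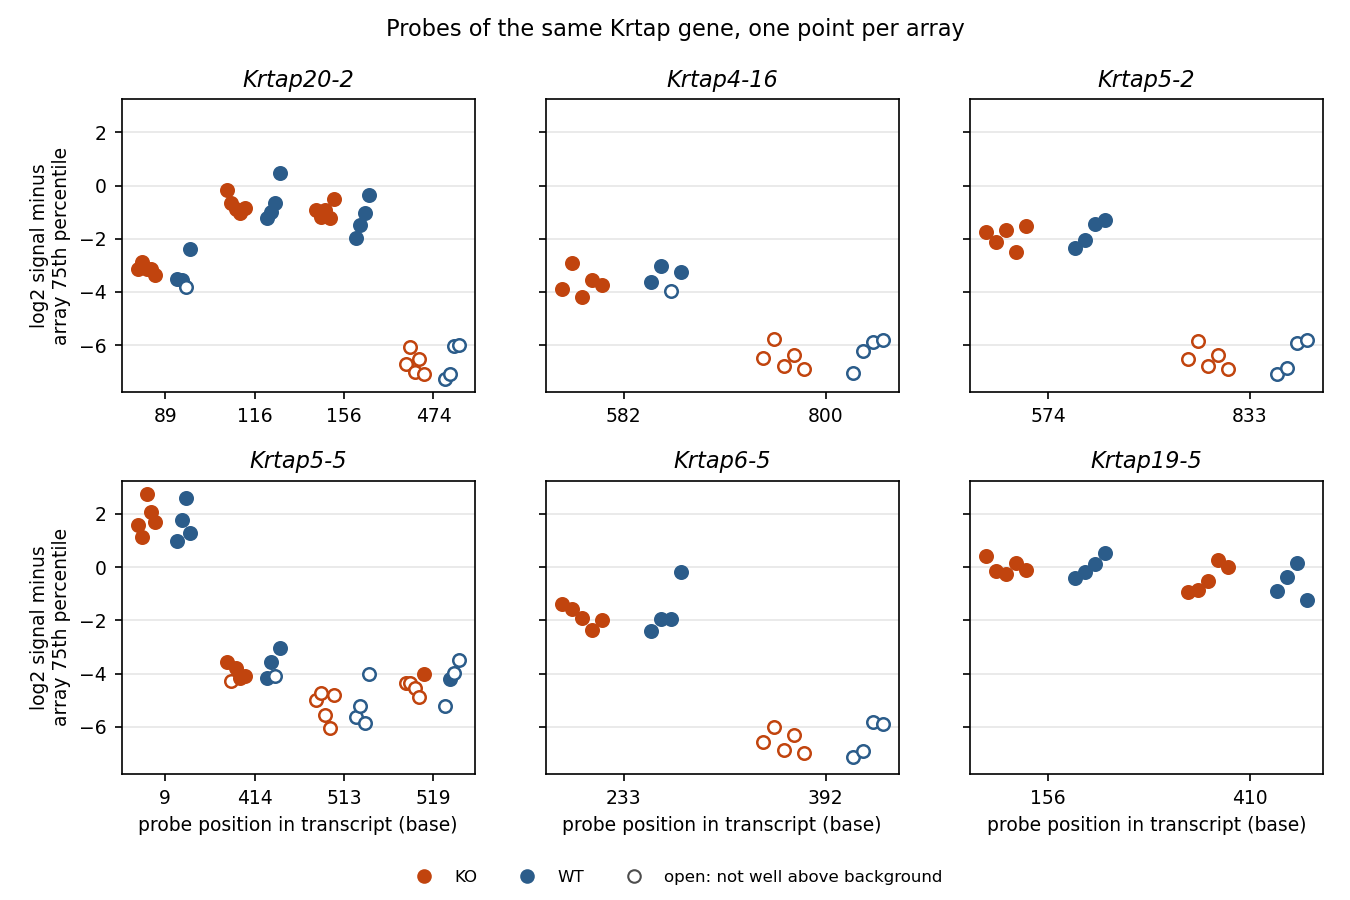
Levels in log2 (signal against the 75th percentile of the array) for the separate probes of 6 Krtap genes, placed by position in the transcript, with KO points left of WT points and open points where the probe was not well above background. In Krtap20-2, Krtap4-16, Krtap5-2 and Krtap6-5 the probe farthest along is open on all 9 arrays, whereas both Krtap19-5 probes are filled on all 9.

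Genes that accompany Krtap expression in hair were counted on the same arrays. Of 63 listed hair genes 61 were on the array and 37 were tested, with 22 higher and 15 lower in KO and a median of 0.09. The test called 0 of 37, and 5 (13.5%) had an unadjusted p below 0.05, against 8.74% of all genes. Hair shaft keratins, the partners of keratin-associated proteins, numbered 15 on the array. Of these 7 were tested, 4 higher and 3 lower (lowest adjusted p 0.884), and Krt33a, Krt33b, Krt39, Krt82 and Krt87 were well above background on no array. Krt85, the keratin of hair matrix and precortex, averaged 3.76 in KO and 3.53 in WT and differed by 0.23 (SE 0.27, limma adjusted p = 0.884).

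Krt36, a keratin of the hair cortex, read −4.47, −4.11, −2.74, −4.33 and −1.62 on KO 1 to KO 5, against −3.75, −3.26, −3.74 and −4.17 on WT 1 to WT 4. KO 5 and KO 3 had the highest Krt36 levels of the 9 arrays. Over the 7 tested shaft keratins, Krt36 among them, the mean level was −1.13, −1.29, −0.29, −1.18 and −0.45 in KO. In WT it was −0.95, −0.59, −0.83 and −1.19. Krtap3-3 was also highest on KO 5 and KO 3, whereas for Krtap3-2 KO 5 was the lowest knockout array. A link between these rankings was not tested. Among the other shaft genes, S100a3, a calcium-binding protein gene of the hair cuticle, did not overlap between groups, with −1.17 in KO and −2.34 in WT on average, and did not pass (difference 1.17, SE 0.22, limma adjusted p = 0.113). Of 12 inner root sheath genes 5 were tested, with Padi1 at 1.01 (SE 0.22, adjusted p = 0.186) and Krt72 at −1.76 (SE 0.62, adjusted p = 0.449), and Krt25, Krt26, Krt27, Krt71 and Krt74 were above background on no array. Of 14 tested regulators of hair differentiation, 10 were higher and 4 lower, with a lowest adjusted p of 0.762.

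Markers of neighbouring epithelia were set beside these values. The mean level over 16 epidermal genes was 2.32, 2.34, 2.43, 2.68 and 0.70 on KO 1 to KO 5, against 3.16, 3.10, 3.22 and 1.27 on WT 1 to WT 4. Over 23 forestomach squamous genes it was 4.21, 4.32, 4.66, 4.50 and 3.58 in KO, against 4.91, 5.11, 5.09 and 3.31 in WT. KO 5 and WT 4 were thus the lowest of their groups for both lists. Of the 16 epidermal genes 2 were higher and 14 lower in KO (median −0.65), and of the 23 squamous genes 8 were higher and 15 lower (median −0.19), with 0 past the threshold in either list. All 21 glandular stomach genes tested were higher in KO. Gkn2, a gastrokine of surface mucous cells, was the 1 that passed (difference 1.77, SE 0.25, limma adjusted p = 0.0282), against 0.202% of all genes. In the same limma test 11 of the 21 had an unadjusted p below 0.05, against 8.74% of all genes. For the epidermal and squamous lists it was 2 of 16 and 3 of 23. The groups did not overlap for 6 of the 21 glandular, 0 of the 16 epidermal and 1 of the 23 squamous genes, against 3.37% of all genes. The part of these makeups in the Krtap3 differences was not tested. Summed over the genes of the list, the signal relative to the 75th percentile was 320 to 1093 in KO and 612 to 1695 in WT for the epidermal list, and 985 to 2211 in KO and 983 to 2947 in WT for the squamous list.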

How the data were processed

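Per the labels, each sample is the stomach of a separate newborn mouse, and DNase-treated total RNA, primed with oligo dT, was labelled by Cy3. The deposited spot intensity values were made by the authors with Agilent Feature Extraction 10.5.1.1, per the file headers, which state background subtraction with spatial detrending and no normalization between arrays. The submitters' processing notes name version 9.1. The authors also deposited yes or no flags of another kind (well above background, saturated, outlier) per spot, and a matrix of log2 values, which, once each array is centred, departs between arrays from the log2 processed signal by at most 3.61e-06 over 29860 probes. That settles its scale and direction. How its rows and columns were centred remains unknown. Column medians, in the order KO 1 to KO 5, were 0.0436, 0.217, −0.124, 0.0347 and −0.137, and, in the order WT 1 to WT 4, −0.279, −0.161, 0.224 and 0.381. Of its 55821 identifiers, 55681 matched probe names used here.

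Control spots (3671 of 62976) and outlier spots were left out, spots of a probe were averaged, and the processed signal, divided by its 75th percentile on the array (221 to 471 units), was analysed as log2. Per array 50.9% to 57.2% of spots stood well above background, and 0 spots were saturated. A probe was kept if at least 4 of 9 arrays flagged it well above background (30205 probes), and of several probes the one with the highest mean stood for its gene (21730 genes). The number of arrays limits the precision. The groups were compared by limma 3.58.1 in R 4.3.3 (lmFit, eBayes, two-sided, no covariate), with Benjamini-Hochberg adjustment over all genes and a threshold of 0.05. SE is limma's. In simulated data made from these genes, 93 of 100 genes changed by 3 log2 units and 40 of 100 changed by 1 were called, with 12 false calls among 21521. Its noise was drawn independently for each gene and array, with no slide effect and no array that stands apart, so these rates may not hold for the measured data.

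Names come from the array design, updated through RefSeq accessions for 26762 probes (2878 took another name). Coordinates are mm9 for probes and GRCm38.p6 for promoters. A genome and protein sequences were not used here. Genes named are Krtap3-2 and Krtap3-3, other Krtap genes by the number of arrays above background, the 5 nearest measured genes on each side and the leading members of each list. Krtap members, lists and tests were chosen with earlier results of these data known. Alternatives tried were normexp, quantile normalization, the authors' matrix, other filters, each probe alone, slide or replicate number as a block, arrays with Y-linked signal, and leaving out each mouse. Replicate numbers were checked and do not pair the samples: correlations of same-numbered deviations ran from −0.48 to 0.15.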

Additional observations from a re-analysis of the deposited data

Results flagged for a closer look

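Krtap12-1 on KO 5 stood far from the other knockout arrays, at −6.77 against −0.71 to 0.32 on the other 4, and its gap to the nearest was 0.854 of the group's range, above the critical value for 5 samples. In wild type Krtap12-1 read −2.21 to −0.51. Krtap19-2 on WT 4, at −1.84 against −4.08 to −3.73 on the other wild-type arrays, stood apart with a gap of 0.842 of the range, above the critical value for 4 samples. In knockout stomachs Krtap19-2 read −3.88 to −3.18. The test flags about 1 in 20 groups by chance. How many groups were searched is not stated here, so these flags are not shown to exceed that rate. KO 5 and WT 4 are also the arrays lowest in squamous markers of their groups. What part that has in these values was not tested.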

How the results depend on the processing

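With the pair set aside, 0 of the tested Krtap genes and 0 of the hair genes passed the threshold under any of the 19 alternatives. The Krtap3-2 difference of 5.13 was 1.64 with normexp and 5.93 on arrays with Y-linked signal, and leaving out 1 mouse at a time gave 4.89 to 5.40. The Krtap3-3 difference of 3.33 was 0.57 with normexp, and 2.94 to 3.67 with 1 mouse left out. Since this contrast chose the pair, no test of it is given. The count of all genes called, 44, was 22 without a filter, 29 with detection on at least 1 array, 5 with slide as a block, 4 on arrays with Y-linked signal, and 11 to 149 with 1 mouse left out, the ends being WT 1 and WT 4. Replicate numbers were not a pairing of mice, and with them as a block 4 genes were called, the Krtap3-2 difference was 5.40 and that of Krtap3-3 2.94. Near Krtap3-2, the count of 0 was 1 with quantile normalization and 0 to 3 with 1 mouse left out. The gene counted under quantile normalization and without KO 5 was Gm11570, for which no weight is put on a call, as it met the filter through knockout arrays alone. Gast was called without KO 2, and Krt20, Gsdma2 and Gsdma3 without WT 4. Slide and scan divide the arrays identically, so scan was not run as a separate block, and slides 2 and 3 hold only knockout arrays. Where the cause of a change is not given, the cause was not tested. Most Krtap probes are at or near background, where a lack of signal is a bound and not a level.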
